A study of Mus musculus with 24 samples.

Results

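A set of 10 genes of the integrated stress response (ISR) was followed in livers of lipodystrophic and control mice: Atf4, which encodes the transcription factor at the centre of the response, and 9 genes known as its partners or targets, namely Atf5, Ddit3, Ddit4, Trib3, Asns, Chac1, Psat1, Phgdh and Sesn2. The list is defined by gene symbols and no measured value enters its rule, although the genes were chosen with earlier results of these data known. All 10 were found among the 23972 genes of the count table. RNA-Seq was performed on 24 livers of female mice, with 1 library per mouse: 7 controls given vehicle, 3 controls labelled rescue, 6 Lmna ADKO mice given vehicle and 8 Lmna ADKO mice labelled rescue. All mice were Lmna fl/fl, with loxP sites in Lmna, controls lacked Cre, and ADKO mice carried Adipoq-Cre, which acts in adipocytes and not in hepatocytes, so the liver was not the tissue of the deletion. Mice were 12 to 14 weeks old at the start, were housed at 22°C, and ate a diet with 60% of its energy as fat for 4 weeks before the injection and for 8 weeks after it. By the methods of the study, rescue was an adeno-associated virus carrying mouse FGF21, and vehicle was its injection buffer.

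The ISR is a shared answer of cells to amino acid shortage, misfolded protein in the endoplasmic reticulum, heme shortage, viral RNA and mitochondrial stress. Separate kinases phosphorylate the initiation factor eIF2, which slows protein synthesis in general while translation of the Atf4 mRNA rises, so that ATF4 protein can increase with little change of its mRNA. ATF4 pairs with C/EBP and other bZIP factors and drives genes for amino acid synthesis, transport and tRNA charging, and, when stress persists, the factor CHOP (encoded by Ddit3). In liver, this response is known from fasting, amino acid-poor diets and fatty liver. RNA counts do not measure eIF2 phosphorylation or ATF4 protein.

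Totals ran from 19863304 to 21510054 counts per library, and values are given as CPM, counts scaled by library size, with each unit worth about 20 counts. Fgf21 mRNA did not set the rescue libraries apart, so the groups are called by their label. The log2 difference from vehicle was 0.24 ± 0.48 (SE, n = 3 and 7, edgeR adjusted p = 0.925) in controls. In ADKO mice it was -0.58 ± 0.37 (n = 8 and 6, edgeR adjusted p = 0.730). In plasma, the study reports a rise of FGF21 after the injection, which was disproportionate in ADKO mice relative to controls. Whether the liver counts include transcripts of the virus is not given in the sources used here. Delivery of the virus was therefore not tested by these Fgf21 counts. Lmna mRNA was measured in every liver, at 15.7 to 22.1 CPM in control vehicle and 23.6 to 31.0 CPM in ADKO vehicle libraries. In 3 libraries (control vehicle 3, control rescue 3 and ADKO rescue 7), long genes were low relative to short genes, with slopes of -0.154 to -0.331 log2 CPM per doubling of exonic length against -0.109 to 0.128 in the other libraries. Ddit3 and Sesn2 moved with this slope within groups (r = -0.716 and 0.574 over 24 libraries), and for the other 8 genes r lay between -0.262 and 0.289.

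Levels of the 10 genes in vehicle-treated controls spanned a wide range when counts were set against exonic length. Atf5, a bZIP factor with strong expression in liver, was highest at 166 ± 39.2 CPM per kb (mean ± SD, n = 7), followed by Atf4 at 27.9 ± 1.11. Next came Trib3 (5.03 ± 1.34), Ddit3 (4.05 ± 0.780), Chac1 (3.84 ± 2.84) and Sesn2 (3.27 ± 0.552), whose libraries overlapped, and then Ddit4 (1.92 ± 0.476). The amino acid synthesis genes Asns (0.188 ± 0.242), Phgdh (0.171 ± 0.0717) and Psat1 (0.160 ± 0.0591) were lowest and did not differ beyond their spread. They rested on few reads, with 2 to 43 counts per control vehicle library for Asns, 4 to 14 for Phgdh and 7 to 22 for Psat1.

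**Figure D1:**
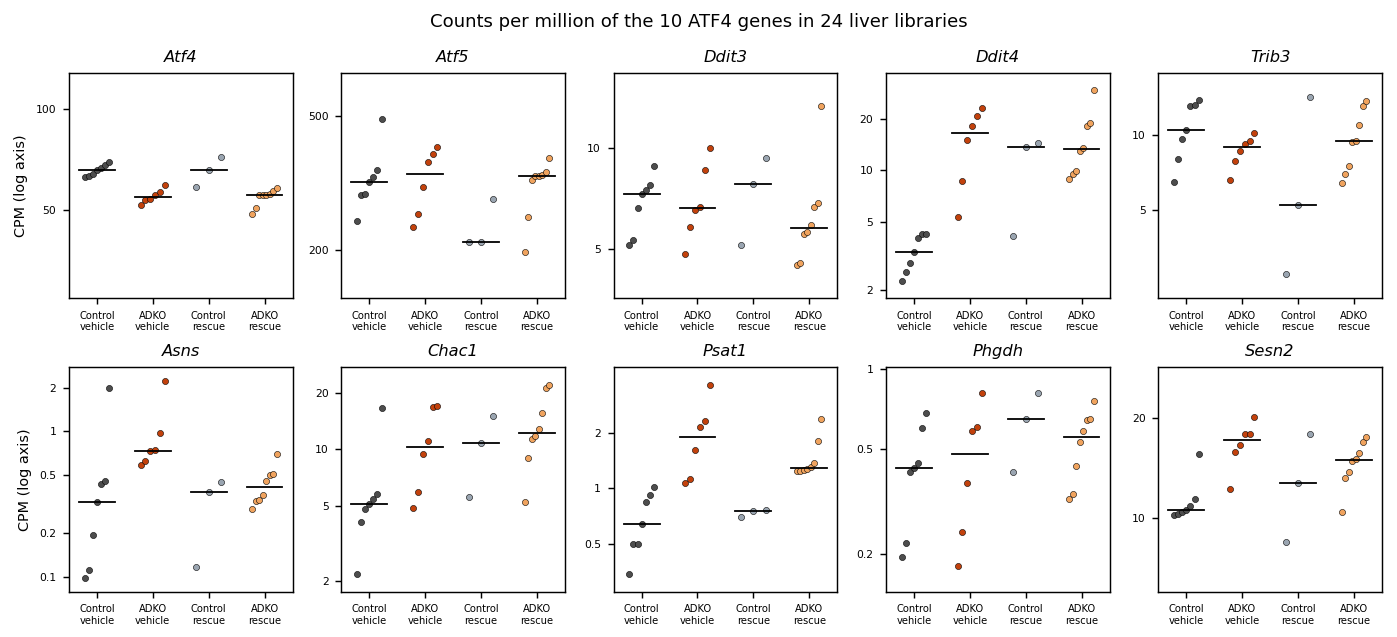
CPM (log axis) of each of the 10 ATF4 genes in every library, with 1 point per mouse, sorted by value within a group, and the group median as a bar. Ddit4 and Psat1 in the 6 ADKO vehicle libraries lie above all 7 control vehicle libraries, whereas Atf4 lies below them.

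The comparison of ADKO with control livers under vehicle asks how loss of adipose tissue bears on the liver. In it, 2 of the 10 genes were called, Ddit4 and Psat1, both higher in ADKO mice, while Atf4 itself was slightly lower and Ddit3, Atf5, Trib3 and Phgdh were not called. A gene was called at an edgeR adjusted p under 0.05 together with a fold change above 1.5. By that rule 8.48% of all 23972 genes were called, 5.12% higher and 3.36% lower, and 13.5% of the 14699 genes with enough counts for edgeR's own filter, which kept all 10. The median log2 fold change was 0.35 over the 10 genes and 0.00 over all genes, and 2 of 10 genes is a share close to this background. In whole liver, a lower share of a cell type and less RNA per cell cannot be told apart.

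Ddit4 encodes REDD1, an inhibitor of mTORC1 that responds to stress, hypoxia and glucocorticoids. The gene (ENSMUSG00000020108, GRCm38 chr10:59949669-59951834, minus strand) was at 2.25, 3.36 and 4.28 CPM (lowest, median, highest) in control vehicle and at 5.32, 16.5 and 23.1 CPM in ADKO vehicle libraries. All 6 ADKO livers were above all 7 control livers. The log2 fold change was 2.16 ± 0.36 (SE, edgeR adjusted p = 0.000255), a 4.48-fold difference with a 95% interval of 2.67 to 7.51.

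Psat1 encodes phosphoserine aminotransferase, the second of the enzymes that make serine from a glycolytic intermediate. The gene (ENSMUSG00000024640, chr19:15904678-15947337, minus strand) was at 0.341, 0.639 and 1.01 CPM in control vehicle and at 1.07, 1.90 and 3.67 CPM in ADKO vehicle libraries. These groups did not overlap either, although the gap between them was small. Psat1 rose by 1.55 ± 0.27 on the log2 scale (edgeR adjusted p = 0.000212), or 2.93-fold (95% interval 1.99 to 4.31), on 22 to 86 counts per ADKO library.

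Phgdh encodes the dehydrogenase that opens the same serine pathway, and it did not follow Psat1. Its CPM was 0.195, 0.422 and 0.681 in control vehicle and 0.180, 0.477 and 0.812 in ADKO vehicle libraries, and these ranges overlapped throughout. The log2 difference was 0.13 with a 95% interval of -0.56 to 0.83 (edgeR adjusted p = 0.861), so a change of either sign within that interval was not excluded. Asns, asparagine synthetase, was at 0.0983, 0.328 and 1.98 CPM in control vehicle and 0.584, 0.736 and 2.22 CPM in ADKO vehicle libraries. Every ADKO liver was above 6 of the 7 controls and 1 control, replicate 4, was above 5 of the 6 ADKO livers. The estimate of 0.90 ± 0.47 did not pass (adjusted p = 0.224). Without that control it was 1.82 ± 0.39 (edgeR adjusted p = 0.00177), and without ADKO vehicle 6, the highest ADKO library, it was 0.48 ± 0.47 (adjusted p = 0.569), so the estimate for Asns turned on single libraries of either group.

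Atf4 mRNA (ENSMUSG00000042406, chr15:80255184-80257541, plus strand) had the smallest spread for its level of the 10 genes in both vehicle groups. It was at 62.6, 65.9 and 69.7 CPM in control vehicle and at 51.7, 54.8 and 59.2 CPM in ADKO vehicle libraries, and all 6 ADKO livers were below all 7 controls. The difference of -0.26 ± 0.07 on the log2 scale (edgeR adjusted p = 0.0180) was below the 1.5-fold limit. With the length of the animal number, which differed between the groups, as a covariate it was -0.22, at an adjusted p of 0.123. Sesn2 encodes sestrin 2, a leucine sensor that restrains mTORC1, and its higher level also stayed short of the fold limit. Its CPM was 10.2, 10.6 and 15.6 in control vehicle and 12.2, 17.2 and 20.1 in ADKO vehicle libraries, with 5 of 6 ADKO livers above every control. The log2 fold change of 0.56 ± 0.14 (edgeR adjusted p = 0.00734) was 1.47-fold, and without control vehicle 2, the highest control, it became a call at 0.65 ± 0.14 (adjusted p = 0.00215). Without ADKO vehicle 2, the lowest ADKO library, it was 0.63 and also called, as it was with the animal number covariate, at 0.59 ± 0.17 (edgeR adjusted p = 0.0307). By adjusted p alone, 4 of the 10 genes passed (Ddit4, Psat1, Sesn2 and Atf4), against 15.1% of all genes.

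Ddit3, Trib3, Atf5 and Chac1 were not called under vehicle. Ddit3, which encodes CHOP, was at 5.15, 7.32 and 8.84 CPM in control vehicle and 4.83, 6.61 and 10.04 CPM in ADKO vehicle libraries (log2 difference 0.03 ± 0.22, edgeR adjusted p = 0.981). Its exons overlap those of Mars and Gm4189 on the opposite strand. Reads of these genes cannot be told apart unless the counting used strand, which is not given in the sources used here. The exons also overlap another protein-coding entry named Ddit3 on the same strand. That entry is not in the count table, and strand would not separate it. Trib3, a pseudokinase that is induced by CHOP and ATF4, was at 6.44, 10.5 and 13.9 CPM in control vehicle and 6.58, 8.94 and 10.2 CPM in ADKO vehicle libraries (-0.30 ± 0.26, adjusted p = 0.489). Atf5 ranged from 243 to 490 CPM in control vehicle and from 233 to 404 CPM in ADKO vehicle libraries (-0.02 ± 0.16, adjusted p = 0.989), and its exons overlap Nup62 and Il4i1 on the other strand. Chac1, which degrades glutathione and is among the most inducible ATF4 targets, was at 2.19, 5.15 and 16.5 CPM in control vehicle and 4.91, 10.2 and 17.0 CPM in ADKO vehicle libraries. Its log2 difference was 0.79 ± 0.41 (edgeR adjusted p = 0.228). The highest control was control vehicle 3, 1 of the 3 libraries with the length slope, and without it Chac1 was called at 1.24 ± 0.37 (adjusted p = 0.0290).

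**Figure D2:**
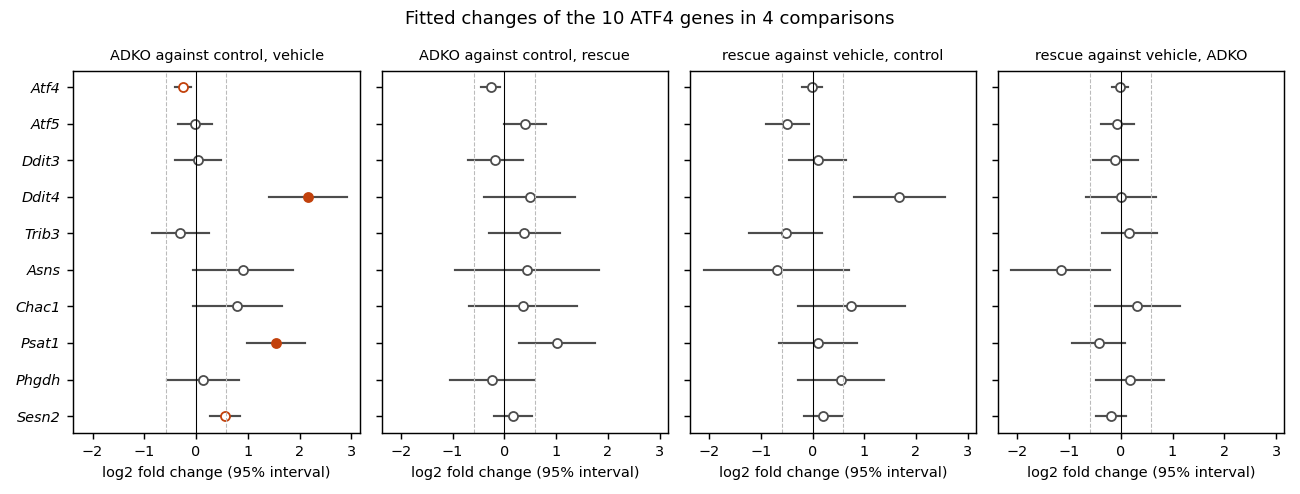
Fitted log2 fold change of each gene with its 95% interval in 4 comparisons from 1 edgeR fit of 24 libraries, with filled points for called genes, red outlines for an adjusted p under 0.05, and dashed lines at a fold change of 1.5. Ddit4 and Psat1 are called in ADKO against control with vehicle, and no gene is called in the other 3 panels.

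The promoters of the genes are shown to set the called genes beside classical ATF4 targets. RefSeq starts (GRCm38.p6) were matched for all 10 genes, and windows of 300 bases, 250 before the start and 50 after it, were searched on both strands. The C/EBP-ATF response element, searched as TGATGNAA, was in 3 of the 10 genes (Asns, Chac1 and Trib3) and in 4.51% of all 27025 genes with a window. A wider form, TGNNGCAA, was chosen after these sequences had been read and overlaps the first where TGATGNAA has a C at its N. It was in 5 of the 10 genes (Atf5, Chac1, Psat1, Sesn2 and Trib3) and in 13.0% of all genes. The 4 genes with neither were Atf4, Ddit3, Ddit4 and Phgdh. The 250 bases before the start of both called genes and of 3 known targets follow, 5′ to 3′ on the gene's own strand, with every match in capitals.
Ddit4 chr10:59951771-59952020 (-): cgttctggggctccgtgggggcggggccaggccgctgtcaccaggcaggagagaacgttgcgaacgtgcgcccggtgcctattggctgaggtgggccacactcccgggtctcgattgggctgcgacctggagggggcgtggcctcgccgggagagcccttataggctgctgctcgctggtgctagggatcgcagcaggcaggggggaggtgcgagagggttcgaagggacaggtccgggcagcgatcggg
Psat1 chr19:15925060-15925309 (-): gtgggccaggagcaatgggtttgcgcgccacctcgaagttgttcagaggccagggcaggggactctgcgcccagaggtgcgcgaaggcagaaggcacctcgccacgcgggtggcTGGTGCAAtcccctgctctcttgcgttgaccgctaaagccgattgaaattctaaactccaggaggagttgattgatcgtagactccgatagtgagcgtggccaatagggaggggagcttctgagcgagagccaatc
Trib3 chr2:152344061-152344310 (-): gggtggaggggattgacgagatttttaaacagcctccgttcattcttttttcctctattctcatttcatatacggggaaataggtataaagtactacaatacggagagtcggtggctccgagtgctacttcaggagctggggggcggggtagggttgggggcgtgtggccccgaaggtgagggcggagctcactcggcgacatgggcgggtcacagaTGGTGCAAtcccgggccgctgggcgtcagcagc
Asns chr6:7693210-7693459 (-): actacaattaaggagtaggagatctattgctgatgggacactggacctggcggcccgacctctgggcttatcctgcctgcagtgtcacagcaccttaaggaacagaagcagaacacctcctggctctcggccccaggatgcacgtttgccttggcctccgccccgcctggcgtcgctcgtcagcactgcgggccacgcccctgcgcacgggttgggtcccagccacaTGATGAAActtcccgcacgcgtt
Chac1 chr2:119350992-119351241 (+): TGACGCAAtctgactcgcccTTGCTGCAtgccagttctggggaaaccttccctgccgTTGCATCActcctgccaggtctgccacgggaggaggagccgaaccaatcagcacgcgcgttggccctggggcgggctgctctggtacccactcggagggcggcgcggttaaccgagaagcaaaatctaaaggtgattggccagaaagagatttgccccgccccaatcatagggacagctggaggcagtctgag

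The match in Psat1 lay at positions -136 to -129 from the start of 1 of its 2 RefSeq windows, and the GENCODE M21 model of the gene begins farther upstream than both. The same 8 letters, TGGTGCAA, were at -33 to -26 in Trib3, whose TGATGNAA match was behind the start, at 15 to 22. Asns had its match at -23 to -16, and Chac1 had 3, at -250 to -243, -230 to -223 and -193 to -186. Ddit4 had neither form in its window, and sequence outside the windows was not searched. The match that Psat1 and Trib3 share is of the wider form, which was chosen after the sequences had been read. Whether a match goes with a change of expression was not tested. A match describes letters and was not tested as a binding site.

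Between genotypes in the rescue groups, 0 of the 10 genes were called by edgeR, where 2.88% of all genes were, and DESeq2 called 0 as well. At an unadjusted p under 0.05, 2 of the 10 passed, Atf4 and Psat1, near the 16.9% of all genes that did. Psat1 was at 0.760, 0.749 and 0.699 CPM in the 3 control rescue livers and at 1.24, 1.29 and 2.41 CPM (lowest, median, highest) in the 8 ADKO rescue livers. All 8 were above all 3 controls, with a log2 difference of 1.01 ± 0.36 (edgeR adjusted p = 0.114, 95% interval 0.28 to 1.74). Atf4 was at 58.7, 72.0 and 65.7 CPM in the controls and at 48.5, 55.4 and 58.3 CPM in the ADKO livers, again without overlap but by a narrow gap (-0.26 ± 0.09, adjusted p = 0.0946). Both estimates had the same sign as under vehicle, in a comparison with no library in common, and neither reached the threshold.

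Ddit4 differed from this pattern. The 3 control rescue livers had 13.6, 14.5 and 4.13 CPM, and the 8 ADKO rescue livers had 8.89, 13.2 and 29.5 CPM. The first 2 controls lay within the ADKO range, and the log2 difference was 0.49 ± 0.42 (edgeR adjusted p = 0.599). Control rescue against control vehicle gave 1.68 ± 0.42 for Ddit4, 3.20-fold (95% interval 1.74 to 5.86), which edgeR did not call (adjusted p = 0.289) and DESeq2 did (adjusted p = 0.0176). The interaction of genotype and treatment was -1.68 ± 0.53, at an unadjusted p of 0.00494 and an adjusted p of 0.984, so the genotype effect on Ddit4 was not shown to differ between the treatments. Animal numbers of 4 digits were carried by 1 of 7 control vehicle, 3 of 3 control rescue, 5 of 6 ADKO vehicle and 4 of 8 ADKO rescue mice, and what the series stands for is not given in the sources used here. For Ddit4 in control rescue against control vehicle, treatment and series cannot be told apart. With the series as a covariate, Ddit4 in ADKO against control with vehicle was 1.89, still called (edgeR adjusted p = 0.00879). ADKO vehicle 1, the single ADKO vehicle mouse with a 3-digit number, had the lowest Ddit4 of its group, and its 5.32 CPM was above the 4.28 CPM of the highest control.

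The other 7 genes had an unadjusted p above 0.05 between the genotypes in the rescue groups. Sesn2 was at 17.9, 12.8 and 8.50 CPM in the control livers, a range that held all 8 ADKO livers (10.5, 14.9 and 17.5 CPM), and the lowest control was the library with the length slope. Trib3 was at 5.23, 14.3 and 2.74 CPM in control rescue and 6.43, 9.46 and 13.8 CPM in ADKO rescue libraries. Its log2 difference of 0.39 ± 0.33 became a call of 1.28 ± 0.31 (edgeR adjusted p = 0.0288) when control rescue 2, the highest of the 3, was left out, and it was -0.01 ± 0.31 (adjusted p = 1) without control rescue 3, the lowest. The remaining estimates were 0.40 for Atf5, -0.17 for Ddit3, 0.43 for Asns, 0.36 for Chac1 and -0.24 for Phgdh, with adjusted p from 0.302 to 0.786.

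Rescue against vehicle within a genotype compares these genes between the treatments. Among controls it nearly coincides with the animal number series, as 3 of 3 rescue and 1 of 7 vehicle mice had 4-digit numbers. Treatment and series cannot be told apart there, and with the series as a covariate edgeR called 0 of all genes. In controls, edgeR called 0 of the 10 genes and 0.0542% of all genes, and besides Ddit4 the one gene at an unadjusted p under 0.05 was Atf5, where 6.16% of all genes passed. The 3 control rescue livers had 211, 283 and 210 CPM of Atf5 against a control vehicle median of 318 CPM, and the groups overlapped (-0.49 ± 0.20, adjusted p = 0.753). Chac1 was at 10.8, 15.1 and 5.59 CPM in the 3 control rescue livers, within the control vehicle range, and its estimate was 0.75 ± 0.50 (adjusted p = 0.786).

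In ADKO mice, edgeR called 0 of the 10 genes and 0% of all genes (0 of 23972, with 1608, or 6.71%, at an unadjusted p under 0.05, and 15 called by DESeq2). Without ADKO rescue 3, 61 of all genes were called by edgeR, and still 0 of the 10. Asns was at 0.295, 0.412 and 0.705 CPM in ADKO rescue against 0.584, 0.736 and 2.22 CPM in ADKO vehicle libraries, and 7 of the 8 rescue livers were below every vehicle liver. The log2 difference was -1.16 ± 0.46, at an unadjusted p of 0.0189 and an edgeR adjusted p of 0.704. Without ADKO vehicle 6, the library with the highest Asns, the estimate was -0.74. Psat1 was lower by 0.42 ± 0.25 on the log2 scale (adjusted p = 0.725), and Ddit4 differed by 0.00 with a 95% interval of -0.68 to 0.68. Atf4 was the best bounded, at -0.02 with an interval of -0.16 to 0.13. The interaction called 0 of the 10 genes and 0.00417% of all genes.

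Within groups, correlation among the 10 genes was mostly weak. Each group's mean log2 CPM was first subtracted. Over the 24 libraries, the 45 pairs then had a median Pearson r of 0.168 and a lowest r of -0.290. Pairs of other genes were not set beside them. Of the 45 pairs, 33 had r above 0 and 4 had r above 0.5. These 4 joined Psat1, Phgdh, Asns and Atf5, which share low counts except for Atf5. Psat1 and Phgdh, neighbours in the serine pathway, had the highest r (0.754, Spearman's rho 0.710), and r was 0.664 without the 2 libraries farthest from the median of Psat1. Atf5 with Asns had r = 0.563, Asns with Phgdh 0.556 and Asns with Psat1 0.548. Control vehicle 4 was the highest control vehicle library in Atf4, Atf5, Asns and Psat1, and ADKO vehicle 6 was the highest of its group in Asns, Psat1 and Phgdh. Both were also the highest of their groups in Fgf21, a hormone gene known as an ATF4 target, at 10.8 and 10.6 CPM. All of these values come from shared libraries and shared scaling and are descriptions.

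**Figure D3:**
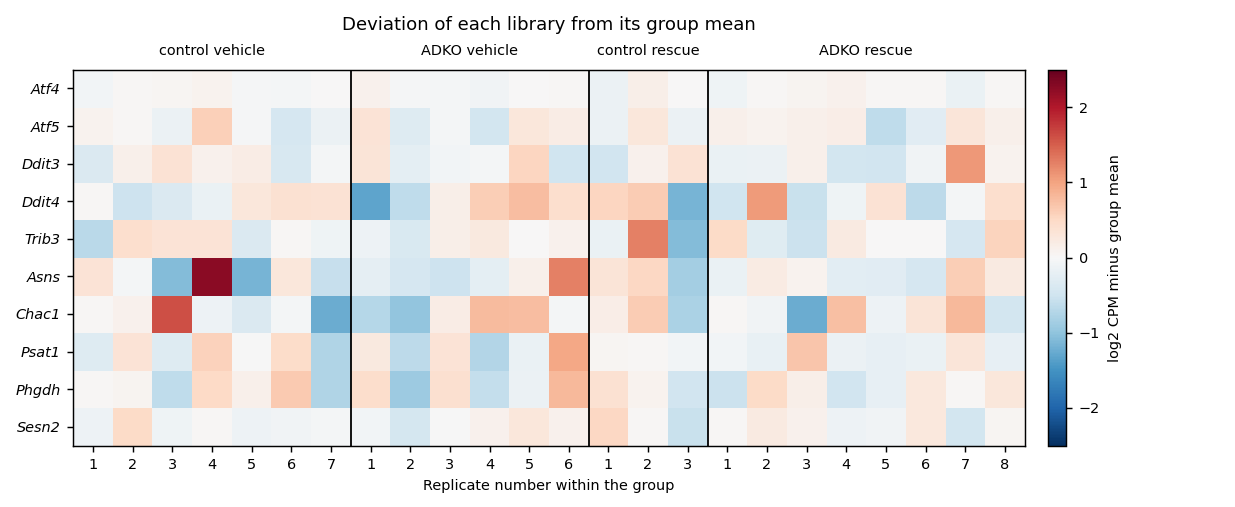
Deviation of log2 CPM from the group mean for each gene (rows) in each library (columns, by group and replicate), red above and blue below the mean. Control vehicle 4 and ADKO vehicle 6 are high in Asns together with Psat1 and Phgdh, and Ddit4 follows other libraries.

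The genes whose centred values were closest to each member differed from member to member. They were searched among the 12492 genes whose mean log2 CPM was 0 or higher. Each r was picked as among the highest of that search over 24 libraries, so selection alone raises it. The values are descriptions, and no link between the genes was tested. Ddit4 was closest to Tat, tyrosine aminotransferase (r = 0.860), and to Rasd1 (0.786). Psat1 was closest to Farp1 and Mast2 (0.757 and 0.745), and Phgdh to Psat1 itself and Col16a1 (0.716). Atf4 was closest to Tpcn2 (0.787) and Pgghg (0.692), Atf5 to Spon2 (0.800) and Chka (0.770), and Asns to Kctd9 (0.746) and Pgm3 (0.734). For Chac1 these were Rbm17 (0.777) and Sema6b (0.769), and for Trib3 they were Gm37305 (0.831) and Tns2 (0.808). Ddit3 was closest to Lin37 and Dhrs3 (0.895 and 0.869), which fell to 0.784 and 0.773 without the 3 libraries with a length slope, and Sesn2 to Lrrk2 and Ranbp9 (0.792 and 0.779), which fell to 0.641 and 0.661.

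The wider ATF4 pathway was followed in 8 further lists with 88 different genes. These lists were chosen with earlier results of these data known, so the share called in them is a description and not a test of the pathway. In ADKO against control with vehicle, 15 of these rose and 3 fell, or 20.5% against 8.48% of all genes and 13.5% of the genes with enough counts, and in the rescue groups 3 rose and 0 fell (3.41% against 2.88%). Rescue against vehicle called 0 of the 88 genes in either genotype. The genes called were spread over the lists and did not include whole pathways.

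**Figure D4:**
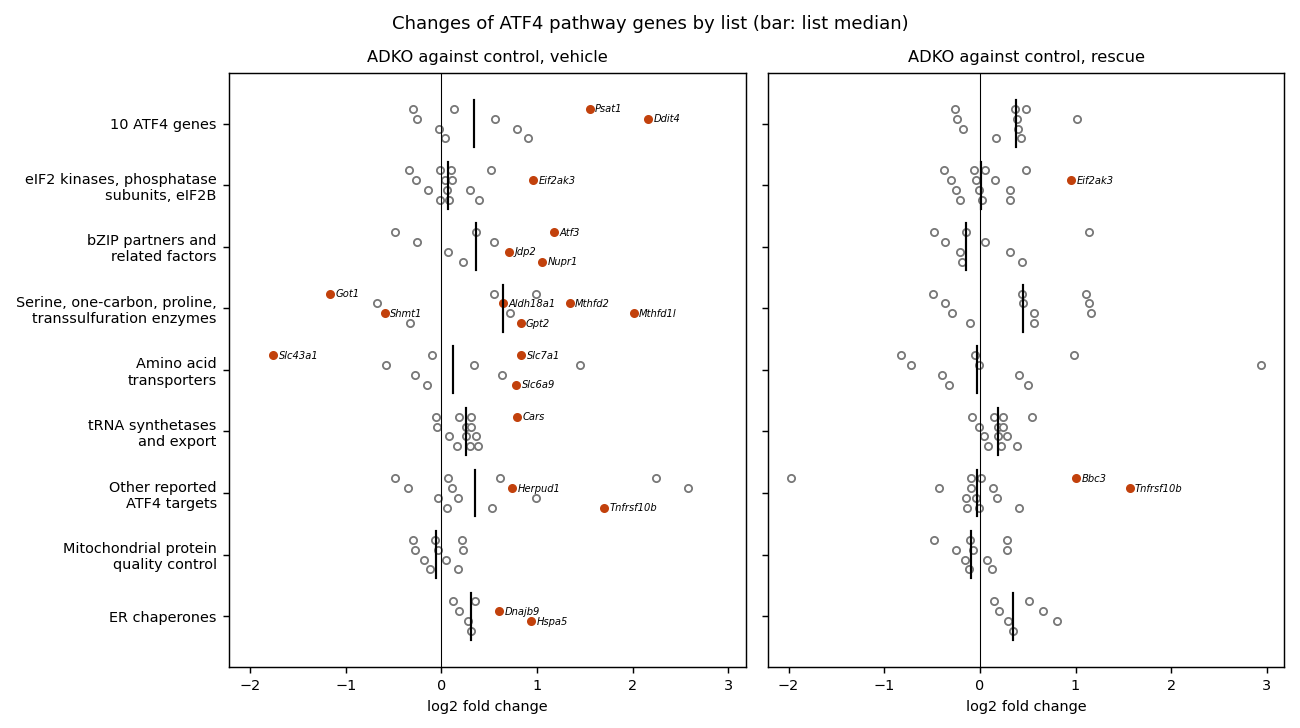
Log2 fold change of every measured gene of the 10-gene set and of 8 further lists in ADKO against control, with vehicle on the left and rescue on the right, with called genes filled and named and a bar at each list's median. The calls under vehicle lie mostly to the right of 0 and include Mthfd1l, Tnfrsf10b and Eif2ak3, and Got1 and Slc43a1 lie farthest to the left.

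Upstream of ATF4, 1 of 14 genes for eIF2 kinases, phosphatase subunits and the exchange factor eIF2B was called, and its list median was 0.06. This was Eif2ak3, which encodes PERK, the eIF2 kinase of the endoplasmic reticulum. It was at 8.40, 11.05 and 13.4 CPM in control vehicle and 16.7, 20.7 and 25.9 CPM in ADKO vehicle libraries, without overlap (log2 fold change 0.96 ± 0.17, edgeR adjusted p = 0.000229). Eif2ak3 was also called between the rescue groups (0.95 ± 0.22, adjusted p = 0.0118), with 11.8, 8.49 and 5.07 CPM in the 3 controls and 9.64, 16.9 and 20.5 CPM in the ADKO livers. The lowest library of each rescue group, control rescue 3 and ADKO rescue 7, was among those with the length slope. Impact, an inhibitor of the kinase GCN2, and Gcn1l1, a GCN2 activator, had adjusted p under 0.05 below the fold limit, at 0.52 ± 0.11 and -0.34 ± 0.09. The kinases Eif2ak1, Eif2ak2 and Eif2ak4 had log2 differences of -0.02, 0.12 and 0.04.

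Among 9 bZIP partners and related factors, 3 rose and 0 fell under vehicle, and 0 were called between the rescue groups. Atf3, a stress-induced repressor and ATF4 target, was at 1.51, 2.14 and 5.02 CPM in control vehicle and 4.43, 5.24 and 8.29 CPM in ADKO vehicle libraries (1.17 ± 0.27, edgeR adjusted p = 0.00384). Nupr1, a small chromatin protein induced by stress, rose by 1.05 ± 0.26 (adjusted p = 0.00503). The other call was Jdp2 (0.71), chosen here after its value was seen. Cebpa, the main C/EBP factor of hepatocytes, was lower without overlap, at 271 to 331 CPM in ADKO and 377 to 497 CPM in control vehicle libraries, but below the fold limit (-0.48 ± 0.11, adjusted p = 0.00295).

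Amino acid and one-carbon enzymes held the largest share of calls, with 4 of 11 higher and 2 lower under vehicle and 0 between the rescue groups. Mthfd1l, the mitochondrial enzyme that makes formate from folate-bound carbon, was at 0.656, 0.998 and 3.50 CPM in control vehicle and 3.29, 5.79 and 6.57 CPM in ADKO vehicle libraries. It rose by 2.01 ± 0.29 (edgeR adjusted p = 2.71e-05), and only the highest control reached the ADKO range. Gpt2, the mitochondrial alanine aminotransferase, rose by 0.83 ± 0.17 (adjusted p = 0.00131). Shmt1, the cytosolic enzyme that moves carbon from serine to folate, fell by 0.59 ± 0.12 on the log2 scale (edgeR adjusted p = 0.000662), with all 6 ADKO livers (154 to 202 CPM) below all 7 controls (205 to 313 CPM). The remaining calls, chosen after their values were seen, were Mthfd2 (1.34), the mitochondrial folate enzyme that precedes Mthfd1l, Aldh18a1 (0.65), which opens proline synthesis, and Got1 (-1.16), cytosolic aspartate aminotransferase. Psph, the enzyme that follows Psat1 in serine synthesis, had a log2 difference of 0.55 ± 0.15 (adjusted p = 0.0115), below the fold limit.

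**Figure D5:**
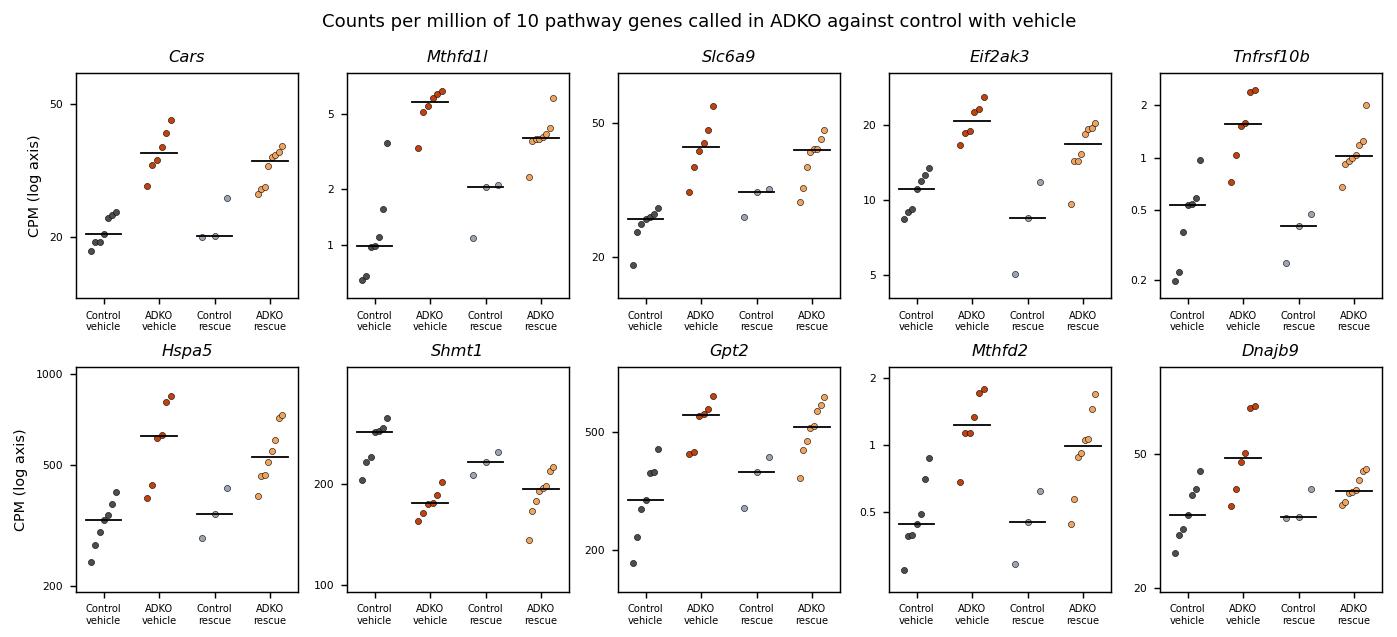
CPM (log axis) in every library of the 10 genes of the further lists with the lowest adjusted p among those called in ADKO against control with vehicle, with 1 point per mouse and the group median as a bar. Eif2ak3, Cars and Slc6a9 in ADKO vehicle libraries lie above all control vehicle libraries, and Shmt1 lies below.

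Of 10 amino acid transporters, 2 rose and 1 fell under vehicle. Slc6a9, a glycine transporter, was at 18.9, 25.9 and 27.9 CPM in control vehicle and 31.2, 42.5 and 56.3 CPM in ADKO vehicle libraries (0.78 ± 0.12, edgeR adjusted p = 5.81e-05). Slc7a1, a carrier of arginine and lysine, rose by 0.84 ± 0.26 (adjusted p = 0.0245), and Slc43a1, a carrier of large neutral amino acids, fell by 1.76 ± 0.44 on the log2 scale (adjusted p = 0.00895). Slc7a11, the cystine carrier often used to read ATF4, had few counts (0.0945 CPM on average in control vehicle), and its estimate of 1.45 ± 0.61 did not pass. Among 13 tRNA synthetase and export genes, 1 was called, Cars, for cysteine, with all 6 ADKO livers (28.4 to 44.8 CPM) above all 7 controls (18.2 to 23.8 CPM) and a log2 fold change of 0.79 ± 0.11 (edgeR adjusted p = 1.09e-05). By adjusted p alone 5 of the 13 were higher and 0 lower, with Wars at 0.38 and Nars at 0.31, and 11 of the 13 estimates were above 0 (median 0.25). The TGATGNAA letters were in 5 of the 8 genes of this list with a matched RefSeq window (Aars, Gars, Iars, Tars and Yars), against 4.51% of all genes. The log2 differences of these 5 ran from -0.04 to 0.25 with no call. The rest of the 13 had no matched window and were not searched, and whether a match goes with a change was not tested.

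Of 14 other reported targets, 2 rose under vehicle. Tnfrsf10b, the mouse death receptor for TRAIL, was at 0.197, 0.535 and 0.967 CPM in control vehicle and 0.730, 1.55 and 2.44 CPM in ADKO vehicle libraries (1.70 ± 0.32, edgeR adjusted p = 0.000370), on 4 to 57 counts. It was called between the rescue groups too (1.57 ± 0.44, adjusted p = 0.0413), where the 3 controls had 0.475, 0.250 and 0.408 CPM and all 8 ADKO livers had at least 0.677 CPM. Herpud1, of the endoplasmic reticulum degradation machinery, rose by 0.74 ± 0.19 under vehicle (adjusted p = 0.00914) and differed by -0.09 between the rescue groups. Vegfa was lower by 0.49 ± 0.15 on the log2 scale (adjusted p = 0.0216), short of the fold limit. Bbc3, which encodes the apoptosis factor PUMA, was called between the rescue groups (1.01 ± 0.26, edgeR adjusted p = 0.0247), with 2.71, 3.60 and 1.63 CPM in the 3 controls and 4.45 to 6.72 CPM in the ADKO livers. Its difference under vehicle was 0.07 (adjusted p = 0.886), and the interaction was not called. Fgf21 was at 1.90, 2.80 and 10.8 CPM in control vehicle and 4.63, 8.04 and 10.6 CPM in ADKO vehicle libraries (0.99 ± 0.38, adjusted p = 0.0898). The list median was 0.35, or 0.14 without Adm2 and Cdsn, which had at most 3 counts in every library of both vehicle groups.

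Stress genes of neighbouring pathways were set beside these. Of 7 endoplasmic reticulum chaperones, 2 rose under vehicle: Hspa5, which encodes BiP, by 0.93 ± 0.17 (edgeR adjusted p = 0.000376, 240 to 408 CPM in control and 390 to 843 CPM in ADKO libraries), and Dnajb9, its cochaperone, by 0.60 ± 0.14 (adjusted p = 0.00352). All 7 estimates were above 0, and the next by adjusted p was Dnajc3 at 0.28 ± 0.12 (adjusted p = 0.143). Of 10 genes for mitochondrial protein quality control, 0 were called by edgeR (median -0.05). The lowest adjusted p among them was that of Oma1, the protease that cleaves DELE1 in mitochondrial stress, at 0.23 ± 0.08 (0.0720), followed by Yme1l1 at 0.21 and Clpp at -0.28.

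Some marker genes of other cell types were called between the genotypes in these livers, as were 8.48% of all genes under vehicle. Their part in the values above was not tested. Of 5 cholangiocyte markers, 1 was called higher under vehicle (Spp1), and all 5 estimates were above 0. The summed level of all 5 was 27.0 to 51.2 CPM in control vehicle against 85.8 to 196 CPM in ADKO vehicle libraries. In the rescue groups it was 32.2 to 38.4 CPM against 50.3 to 241 CPM. Spp1 made up most of these sums, at 23.3 to 45.3 CPM in control vehicle and 78.7 to 186 CPM in ADKO vehicle libraries. Krt19, Krt7, Epcam and Sox9 reached at most 5.25 CPM in any vehicle library. Stellate cell and fibroblast markers (1 of 5 called, Lrat) summed to 189 to 242 CPM in control vehicle and 245 to 336 CPM in ADKO vehicle libraries. Endothelial markers had 1 call of 5 (Lyve1, higher in both genotype comparisons), but only 2 of the 5 estimates were above 0 under vehicle (median -0.27). Their sums were 194 to 244 CPM in control vehicle and 178 to 228 CPM in ADKO vehicle libraries. Erythroid markers had 1 call of 3 (Alas2, higher). Hepatocyte markers were present in every library and had 0 calls of 5, with sums of 70305 to 125579 CPM in control vehicle and 63455 to 97539 CPM in ADKO vehicle libraries. Macrophage (6 genes) and lymphocyte (5 genes) markers also had 0 calls. The 4 adipocyte markers summed to at most 3.61 CPM in any library, with Lep at 0 in all vehicle libraries, and the 4 acinar markers found of 5 to at most 0.487 CPM, with 1 called lower (Cela2a).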

How the data were processed

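Liver RNA was sequenced by the study, and the authors deposited whole-number read counts per Ensembl gene, which were used as deposited. Per the labels' processing notes, cutadapt 4.8, FastQC 0.11.8, STAR 2.7.8a, RSEM 1.3.3 and build GRCm38 were used, and the counts may be RSEM estimates rounded by the authors. Of 23972 genes, 23926 were found in GENCODE M21, which gave symbols and positions. Groups came from sample titles. The 24 libraries were fitted in 1 model of 4 groups with edgeR 4.0.16 (R 4.3.3; TMM, quasi-likelihood test, no filter, Benjamini-Hochberg adjustment over all genes), and CPM used the same scaling, with a prior count of 2 on the log2 scale. The pipeline was tested on simulated data. Alternatives were DESeq2 1.42.0, its size factors, filterByExpr, adjusted p alone, the groups compared alone, covariates for animal number series and length slope, and leaving out libraries. Single genes were followed under these alternatives only for the 10 genes, so calls in the further lists and markers were not checked against them. In the 67 pairs of replicates the mean chi-square per gene was at least 14.1, where sampling noise gives 1, so none was a repeat. Each library is 1 mouse. The 10 genes and all lists were chosen with earlier results of these data known. From each further list, the 3 genes with the lowest adjusted p under vehicle and those called elsewhere were named.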

Additional observations from a re-analysis of the deposited data

Results flagged for a closer look

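Of 30 sets of values tested (10 genes in the groups of 6, 7 and 8 libraries), 3 held a library far from the others by Dixon's criterion, which chance gives in about 1 of 20. Asns in ADKO vehicle replicate 6 was at 2.22 CPM, with the next library at 0.972 CPM. Sesn2 in control vehicle replicate 2 was at 15.6 CPM, with the next at 11.5 CPM. Ddit3 in ADKO rescue replicate 7 was at 13.3 CPM, with the next at 6.84 CPM, and this library had the steepest length slope (-0.331). No interaction of genotype and treatment passed an edgeR adjusted p of 0.05 for any of the 10 genes, the lowest being 0.984.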

How the results depend on the processing

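Ddit4 and Psat1 were called in ADKO against control with vehicle under every alternative run, with log2 fold changes of 2.003 to 2.34 and 1.28 to 1.67 when 1 library was left out. The number of the 10 genes called there was 2, and 4 by adjusted p alone. It was 3 with the animal number series (Sesn2 added), 3 without the 3 libraries with a length slope (Chac1 added), and 2 to 3 when 1 library was left out. Between genotypes in the rescue groups, 0 became 1 (Trib3) without control rescue replicate 2, so the range was 0 to 1. In controls, rescue against vehicle gave 0, and 1 (Ddit4) with DESeq2. Of 1060 values of single genes under alternatives, 1003 kept direction and call, 8 became calls, 0 lost a call or reversed as a call, and 49 changed sign without being called in either setting. Counts over all genes moved more: between genotypes under rescue, 690 became 344 with only these groups, 402 without the 3 libraries with a length slope, and 339 to 1149 when 1 library was left out. Rescue in controls gave 13, 38 with DESeq2, 0 with the animal number series, and 3 (without control rescue 2) to 26 (without control vehicle 6) when 1 library was left out. Rescue in ADKO mice gave 0, 15 with DESeq2 and 61 without ADKO rescue 3, and the interaction gave 1, with 0 to 11 under alternatives. No paired analysis was possible because animal numbers were unique to a library. Asns, Phgdh and Psat1 rested on at most 86 counts per library, which limits what could be detected.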
